A study of Mus musculus with 8 samples.

Results

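The 9 genes that encode the receptors through which group 2 innate lymphoid cells (ILC2s) sense epithelial alarmins and growth cytokines are described here. They were chosen by name. Il1rl1 and Il1rap form the IL-33 receptor, Il17rb and Il17ra the IL-25 receptor, Crlf2 and Il7r the receptor for TSLP (thymic stromal lymphopoietin), and Il18r1 binds IL-18. Il7r also pairs with Il2rg, the common gamma chain, as the IL-7 receptor, and Il2ra is the alpha chain of the IL-2 receptor. All 9 were present among 55413 genes of the bulk table and 15083 genes of the single-cell table, and all 9 passed the filters on low values, which left 11222 and 10820 genes to test.

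All mice were wild type C57BL/6, and the cells were ILC2s sorted from the lung. The bulk libraries came from female mice that received IL-33 through the nose on 3 successive days together with dopamine (3 libraries) or with its vehicle PBS (3 libraries). Each held the RNA of 2000 sorted cells, read by the full-length Smart-Seq2 method. The single-cell data came from male mice in 1 droplet pool, in which antibody hashtags marked the source of each cell: hashtags 6, 7 and 8 had IL-33 plus dopamine, hashtags 3, 4 and 5 had IL-33, and hashtags 1 and 2 had PBS without IL-33. IL-33 was listed for 3 days for this pool as well. The labels do not state that a hashtag is 1 mouse, so the p-values measure the spread between hashtags. Ages of the mice are not given in the sources used here.

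ILC2s have no antigen receptor and act on cytokines that injured epithelium and other cells release. IL-33 binds ST2, the product of Il1rl1, which recruits the shared subunit Il1rap and signals through MyD88 and IRAK kinases, whereas the gamma chain receptors signal through JAK kinases and STAT factors. Il1rl1 and Il7r are used to identify ILC2s in the lung, and the protein of Il2ra, CD25, is a common sorting and activation marker of these cells. Dopamine is a catecholamine neurotransmitter.

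Il1rl1 and Il18r1 are neighbours on chromosome 1 of the mouse build GRCm38, at chr1:40429570-40465415 and chr1:40465552-40500854 on the plus strand. Il1rap lies at chr16:26581704-26730117 (plus), Il17rb at chr14:29996135-30008896 (minus), Il17ra at chr6:120463247-120487559 (plus) and Crlf2 at chr5:109554709-109558993 (minus). Il7r lies at chr15:9505788-9530176 (minus), Il2ra at chr2:11642807-11693193 (plus) and Il2rg at chrX:101264378-101268255 (minus). All are annotated as protein-coding in GENCODE M21. Il1rl1 has 5 annotated transcripts, and the gene totals used here do not separate the membrane receptor from its soluble decoy form. Exons of Il1rap overlap Gm20319 and exons of Il17rb overlap Actr8 on the opposite strand, and exons of Il2rg overlap Gm20489 on the same strand. Reads of these overlaps may have been counted to either gene, so levels of these 3 receptors are uncertain to that extent.

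The bases before the start sites of 4 of these genes are shown because Il1rl1 and Il2ra shared a pattern across cell clusters, Il7r had the smallest p of the 9 in the bulk data, and Il17rb has a start region of another kind. Il1rl1 has a distal and a proximal start, which are known in mice as the promoters used in blood cells and in fibroblasts. Each line gives the 250 bases before the RefSeq start (GRCm38.p6), 5′ to 3′ on the gene's strand. Capitals mark the only matches to the motifs searched on both strands. The letters AGATAA stood for the binding motif of GATA factors, TTCNNNGAA for that of STAT factors, TGANTCA for that of AP-1 and TGACGTCA for the cAMP response element (CRE).
Il1rl1 distal start (chr1:40429320-40429569, plus strand): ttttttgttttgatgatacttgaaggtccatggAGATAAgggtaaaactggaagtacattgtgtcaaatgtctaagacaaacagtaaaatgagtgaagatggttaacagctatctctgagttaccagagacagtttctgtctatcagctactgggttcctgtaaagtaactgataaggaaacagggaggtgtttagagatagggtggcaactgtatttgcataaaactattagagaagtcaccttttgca
Il1rl1 proximal start (chr1:40439379-40439628, plus strand): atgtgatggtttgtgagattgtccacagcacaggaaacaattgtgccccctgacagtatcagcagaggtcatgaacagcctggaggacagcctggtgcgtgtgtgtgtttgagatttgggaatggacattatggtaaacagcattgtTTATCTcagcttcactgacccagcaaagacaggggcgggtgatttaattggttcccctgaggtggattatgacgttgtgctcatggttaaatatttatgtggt
Il2ra (chr2:11642542-11642791, plus strand): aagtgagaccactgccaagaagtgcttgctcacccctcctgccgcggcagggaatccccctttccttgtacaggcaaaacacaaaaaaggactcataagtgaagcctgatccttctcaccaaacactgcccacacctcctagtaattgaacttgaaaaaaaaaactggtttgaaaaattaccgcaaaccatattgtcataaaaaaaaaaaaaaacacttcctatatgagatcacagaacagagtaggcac
Il7r (chr15:9529877-9530126, minus strand): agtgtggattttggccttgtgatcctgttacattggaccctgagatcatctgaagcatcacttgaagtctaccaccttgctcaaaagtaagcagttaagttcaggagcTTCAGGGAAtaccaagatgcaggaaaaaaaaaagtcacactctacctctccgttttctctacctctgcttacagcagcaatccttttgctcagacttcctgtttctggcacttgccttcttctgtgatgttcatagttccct
Il17rb (chr14:30008897-30009146, minus strand): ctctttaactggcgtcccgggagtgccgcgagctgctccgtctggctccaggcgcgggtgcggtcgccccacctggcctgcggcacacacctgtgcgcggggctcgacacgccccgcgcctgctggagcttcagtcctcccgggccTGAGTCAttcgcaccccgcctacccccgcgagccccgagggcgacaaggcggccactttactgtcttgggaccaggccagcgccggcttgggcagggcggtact

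The GATA motif stood at -217 and -103 from the distal and the proximal start of Il1rl1, in the second case on the reverse strand. A STAT motif stood at -142 from the start of Il7r, and an AP-1 motif at -104 from that of Il17rb. Of the 3 windows of Il18r1, which are not printed, the one at chr1:40465756-40466055 held 2 STAT motifs, at -219 and -152. Of 32851 RefSeq promoter windows of 300 bases (250 before to 50 after the start), 11.2% held the GATA motif, 8.3% the STAT motif, 7.81% the AP-1 motif and 1.79% the CRE motif. None of the 11 windows of the 8 receptors with an entry held the CRE motif. The windows ranged in CpG content: there were 1 and 3 CpG dinucleotides for Il1rl1, 3 for Il2ra, 1 for Il7r and 3 for Il2rg, with 5, 7 and 8 for the windows of Il18r1 between these and the 32 for Il17rb, 31 for Crlf2 and 33 for Il1rap. A match describes letters in a window and says nothing of binding. Part of the Il7r window overlaps an exon of a noncoding transcript in GENCODE M21.

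The bulk values are TPM (transcripts out of 1000000), which carry no read counts, so the depth behind them is unknown. Genes at a TPM of 1 or more numbered 11502, 11529 and 11745 in dopamine libraries 1, 2 and 3. They numbered 11384, 9822 and 10525 in PBS libraries 1, 2 and 3, so every dopamine library had more than every PBS library. The part of this difference in the bulk comparisons below was not tested. Single-cell hashtags held between 311 and 1516 cells and between 1397576 and 9268932 UMIs (unique molecular identifiers, each a counted RNA molecule), and their median cell held between 4201 and 5692 UMIs. Bulk levels differed widely between the 10 ILC2 genes. Gata3 had 272 to 473 TPM in dopamine libraries and 306 to 456 TPM in PBS libraries. Il13 had 20.7 to 30.0 TPM in dopamine libraries and 29.4 to 32.8 TPM in PBS libraries. Both genes overlapped between the groups, unlike other genes of the list that are named further below. In single cells the 10 genes summed to 6823 to 8495 CPM (counts scaled to 1000000 UMIs) in IL-33 plus dopamine hashtags. The same sums were 6684 to 7457 CPM in IL-33 hashtags and 6450 to 7361 CPM in PBS hashtags. No barcode was listed more than once in the pool.

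Dopamine was first compared with PBS vehicle in the bulk libraries, all under IL-33. In every dopamine library 4 receptor genes, Il7r, Il17ra, Il18r1 and Il1rap, lay above every PBS library, but no receptor passed the test across all genes, and 23.5% of all tested genes were higher without overlap. The other receptors, among them Il1rl1 itself, overlapped between the groups. The tested values were limma log2 fold changes of TPM + 1, and a gene passed at a Benjamini-Hochberg adjusted p under 0.05, which 4 of 11222 genes did (0.0356%). The deposited TPM put the median of all tested genes at 0.49 on the log2 scale, so each change is also given relative to that median.

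Of the IL-33 receptor, Il1rl1, the ligand-binding chain, had 130.15, 71.5 and 114 TPM in the dopamine libraries, against 185, 61.2 and 52.2 TPM in the PBS libraries. PBS library 1 held the highest value of all 6 libraries and the groups overlapped. Its log2 fold change was 0.28 ± 0.46 (SE), which is -0.21 relative to the median (limma adjusted p = 0.715). Il1rap, the signalling chain, had 2.6, 7.54 and 5.85 TPM in the dopamine libraries, against 1.60, 0.55 and 1.25 TPM in the PBS libraries. All dopamine libraries lay above all PBS libraries, at levels near the filter, with a log2 fold change of 1.51 ± 0.55 (SE), 1.02 above the median (limma adjusted p = 0.150).

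For the IL-25 receptor, Il17rb, the specific chain, had 62.7, 45.3 and 62.6 TPM in the dopamine libraries, against 122, 41.8 and 39.3 TPM in the PBS libraries. PBS library 1 was again the highest and the groups overlapped. The log2 fold change of Il17rb was -0.061 ± 0.43 (SE), which is -0.56 relative to the median (limma adjusted p = 0.938). Il17ra, the chain shared by several IL-17 family receptors, had 47.4, 48.2 and 64.0 TPM in the dopamine libraries, against 19.0, 6.77 and 14.1 TPM in the PBS libraries. The lowest dopamine library was above the highest PBS library, and the log2 fold change of 2.01 ± 0.42 (SE), 1.52 above the median, was the largest of the 9 (limma adjusted p = 0.0832).

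Crlf2, the TSLP-binding chain, had 25.1, 32.2 and 21.0 TPM in the dopamine libraries, against 34.1, 13.6 and 17.4 TPM in the PBS libraries. The groups overlapped, with a log2 fold change of 0.34 ± 0.43 (SE), which is -0.16 relative to the median (limma adjusted p = 0.631). Il7r, its partner and the IL-7 receptor chain, had 307, 358 and 419 TPM in the dopamine libraries, against 164, 74.4 and 82.1 TPM in the PBS libraries. The groups were wide apart, with a log2 fold change of 1.83 ± 0.31 (SE), 1.34 above the median, and Il7r ranked at place 20 of all tested genes by p (limma adjusted p = 0.0703). Genes with a relative change at least that of Il7r made up 4.79% of all tested genes.

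Il18r1, the IL-18-binding chain and genomic neighbour of Il1rl1, had 72.1, 96.1 and 78.6 TPM in the dopamine libraries, against 38.6, 19.2 and 33.9 TPM in the PBS libraries. These groups did not overlap (log2 fold change 1.45 ± 0.34, SE, 0.95 above the median; limma adjusted p = 0.0832). Il2ra had 57.1, 50.9 and 59.0 TPM in the dopamine libraries, against 90.8, 42.6 and 28.9 TPM in the PBS libraries, which overlapped. Its log2 fold change was 0.20 ± 0.40 (SE), which is -0.30 relative to the median (limma adjusted p = 0.775). Il2rg, the common gamma chain, had 1191, 1031 and 1179 TPM in the dopamine libraries, against 843, 906 and 1179 TPM in the PBS libraries. It overlapped as well, with a log2 fold change of 0.23 ± 0.17 (SE), which is -0.27 relative to the median (limma adjusted p = 0.399).

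**Figure D1:**
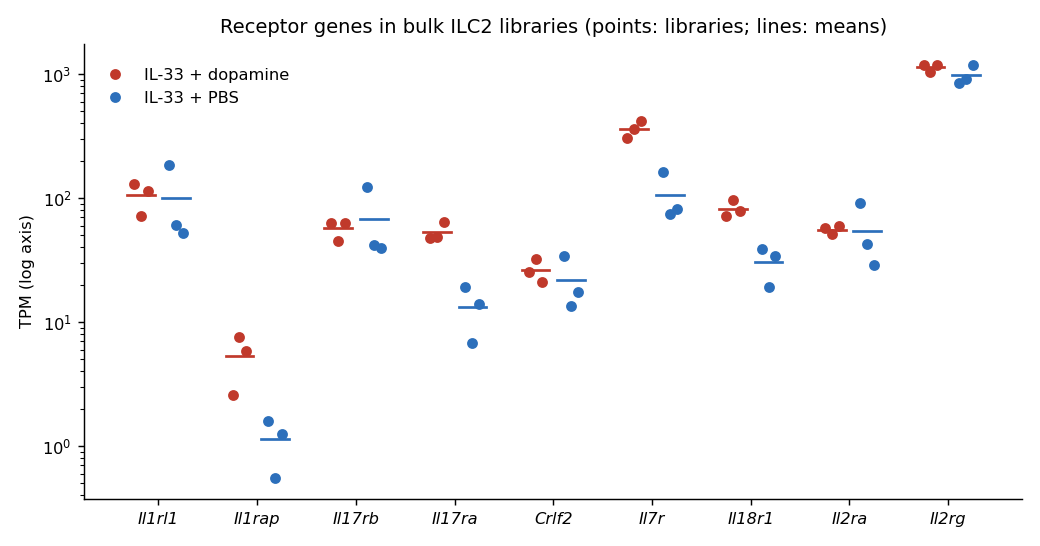
TPM (log axis) of the 9 receptor genes in each bulk library, IL-33 plus dopamine (red) left of IL-33 plus PBS (blue), with lines at the group means (n = 3 each). Il1rap, Il17ra, Il7r and Il18r1 do not overlap between groups, and a single PBS library, number 1, is the highest for Il1rl1, Il17rb, Crlf2 and Il2ra.

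A two-sided exact permutation test gave each of the 4 receptors that did not overlap p = 0.1, the smallest that 3 against 3 libraries allow. Which receptors passed depended on the libraries and the scaling. Without PBS library 1, Il7r (limma adjusted p = 0.0098), Il17ra (0.0186) and Il18r1 (0.0263) passed, in a fit in which 14.3% of all tested genes did; with libraries weighted by their quality, Il1rap passed too (limma adjusted p = 0.0370), where 25% of all tested genes passed. Under quantile normalization Il7r passed (limma adjusted p = 0.0463), as did 0.187% of all tested genes. The other receptors also moved with single PBS libraries. Without PBS library 1, the log2 fold changes were 0.84 for Il1rl1, 0.46 for Il17rb, 0.71 for Crlf2 and 0.65 for Il2ra, at a median of all genes of 0.67. Without PBS library 3 they were -0.059 for Il1rl1, -0.34 for Il17rb, 0.24 for Crlf2 and -0.16 for Il2ra, at a median of 0.47.

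The summed levels of the T cell, NK cell and ILC1, and ILC3 marker lists in every dopamine library lay above those in every PBS library. The same held for the epithelium and endothelium lists, the other lists overlapped, and no marker passed the test. Beside the counts of markers below, 23.5% of all tested genes were higher without overlap. The summed TPM of 7 T cell genes was 321 to 730 in dopamine libraries and 76.8 to 245 in PBS libraries, with 2 of 7 genes higher without overlap. The 6 genes of NK cells and ILC1s summed to 96.6 to 177 TPM in dopamine libraries and 7.42 to 43.8 TPM in PBS libraries (3 of 6 not overlapping). The 5 ILC3 genes summed to 107 to 196 TPM in dopamine libraries and 10.9 to 69.4 TPM in PBS libraries (4 of 5). The NK cell and ILC3 lists share a gene, which is counted in both. Cd3e, a T cell receptor subunit, had 44.8, 170 and 105 TPM in dopamine libraries, against 4.33, 6.68 and 43.6 TPM in PBS libraries. Cd3d had 39.7, 181 and 103 TPM in dopamine libraries, against 1.82, 7.16 and 46.1 TPM in PBS libraries. Its groups overlapped, as did those of Lck. Cd4 had 28.7 TPM in dopamine library 2 and 0.89 TPM in PBS library 1. It was listed at 0 in dopamine libraries 1 and 3 and in PBS libraries 2 and 3. Il7r, Il18r1 and Il17ra are also expressed by such lymphocytes, and the part of other cells in the bulk values of these receptors was not tested. The 10 ILC2 genes summed to 3211 to 5086 TPM in dopamine libraries and to 3364 to 5093 TPM in PBS libraries, with 3 of 10 higher and 1 lower without overlap. The higher genes were Id2, Rora and Cxcr6. Id2 had 708 to 943 TPM in dopamine libraries and 93.4 to 458 TPM in PBS libraries. For Rora these values were 492 to 621 and 151 to 387 TPM, and for Cxcr6 387 to 430 and 340 to 385 TPM. The lower gene was Arg1, with 212 to 544 TPM in dopamine libraries and 627 to 1270 TPM in PBS libraries. In dopamine libraries, the remaining marker lists summed to 66.8 to 238 TPM for B cells, 2.40 to 396 for myeloid cells, 102 to 168 for basophils and mast cells, 8.87 to 20.3 for epithelium, 23.8 to 28.0 for endothelium and 0 to 2.6 for fibroblasts. In PBS libraries the same lists summed to 21.0 to 106 TPM, 8.73 to 120, 56.6 to 159, 5.80 to 8.44, 7.33 to 22.1 and 0. In bulk RNA, fewer cells of a type and less RNA per cell cannot be told apart.

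The order of the levels per length was given within each group. In dopamine libraries Il2rg had the highest level (1134 ± 89.1 TPM, SD, n = 3), followed by Il7r (361 ± 55.9 TPM), Il1rl1 (105 ± 30.4 TPM), Il18r1 (82.3 ± 12.4 TPM), Il17rb (56.9 ± 10.05 TPM), Il2ra (55.7 ± 4.21 TPM), Il17ra (53.2 ± 9.36 TPM), Crlf2 (26.1 ± 5.66 TPM) and Il1rap (5.33 ± 2.51 TPM). In PBS libraries the order was Il2rg (976 ± 179 TPM, SD, n = 3), Il7r (107 ± 49.5 TPM), Il1rl1 (99.3 ± 74.0 TPM), Il17rb (67.8 ± 47.2 TPM), Il2ra (54.1 ± 32.5 TPM), Il18r1 (30.6 ± 10.1 TPM), Crlf2 (21.7 ± 10.9 TPM), Il17ra (13.3 ± 6.16 TPM) and Il1rap (1.13 ± 0.535 TPM). In dopamine libraries the neighbours from Il1rl1 to Il18r1 and from Il17rb through Il2ra to Il17ra exceeded the next gene in only 2 of 3 libraries. In PBS libraries the same held from Il7r to Il1rl1 and from Il17rb through Il2ra to Il18r1. Il18r1 lay above Il17rb, and Il17ra above Crlf2, in 3 of 3 dopamine libraries and 0 of 3 PBS libraries.

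The same treatment was then compared in single cells from male mice, with counts summed per hashtag, IL-33 plus dopamine against IL-33. No receptor passed (edgeR quasi-likelihood test, Benjamini-Hochberg adjusted over 10820 genes, of which 3, or 0.0277%, passed), and all 9 overlapped between the hashtags of the groups, where 7.81% of all tested genes were higher and 6.87% lower without overlap. Levels are given as CPM, counts scaled to 1000000 UMIs of a hashtag, which do not rank genes against each other.

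Il1rl1 had 705, 801 and 819.9 CPM in IL-33 plus dopamine hashtags, against 749, 725 and 693 CPM in IL-33 hashtags. The log2 fold change was 0.11 ± 0.079 (SE; edgeR adjusted p = 0.685). Il1rap had 8.41, 5.09 and 6.79 CPM in IL-33 plus dopamine hashtags, against 7.77, 9.27 and 7.09 CPM in IL-33 hashtags, from 35 to 72 UMIs each. The direction opposed that of the bulk libraries (log2 fold change -0.23 ± 0.21, SE; edgeR adjusted p = 0.753).

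Il17rb had 86.0, 79.4 and 94.6 CPM in IL-33 plus dopamine hashtags, against 92.6, 97.6 and 84.2 CPM in IL-33 hashtags (log2 fold change -0.072 ± 0.095, SE; edgeR adjusted p = 0.857). Il17ra, the receptor with the largest bulk change, had 41.7, 42.6 and 41.8 CPM in IL-33 plus dopamine hashtags, against 44.2, 46.5 and 41.7 CPM in IL-33 hashtags. Its log2 fold change was -0.065 ± 0.098 (SE; edgeR adjusted p = 0.872), against 2.01 ± 0.42 in bulk.

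Crlf2 had 71.0, 74.5 and 66.7 CPM in IL-33 plus dopamine hashtags, against 74.9, 70.7 and 70.5 CPM in IL-33 hashtags (log2 fold change -0.025 ± 0.085, SE; edgeR adjusted p = 0.950). Il7r had 1347, 1165 and 1267 CPM in IL-33 plus dopamine hashtags, against 1225, 1329.9 and 1136 CPM in IL-33 hashtags. Its log2 fold change was 0.036 ± 0.072 (SE; edgeR adjusted p = 0.909), against 1.83 ± 0.31 in bulk. The assays differ in the sex of the mice and in the chemistry, and these cannot be told apart here. The assays also differed in how marker sums of other lymphocytes compared between the groups, given above for bulk and below for single cells. The part of such cells in the difference between the assays was not tested.

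Il18r1 had 24.2, 40.7 and 27.3 CPM in IL-33 plus dopamine hashtags, against 29.99, 23.9 and 20.8 CPM in IL-33 hashtags. Hashtag 7 was the highest and the groups overlapped (log2 fold change 0.30 ± 0.19, SE; edgeR adjusted p = 0.624). Il2ra had 299, 262 and 349.5 CPM in IL-33 plus dopamine hashtags, against 278, 311 and 316 CPM in IL-33 hashtags (log2 fold change 0.015 ± 0.11, SE; edgeR adjusted p = 0.979). Il2rg had 415, 412 and 444 CPM in IL-33 plus dopamine hashtags, against 446, 429.99 and 434 CPM in IL-33 hashtags (log2 fold change -0.040 ± 0.070, SE; edgeR adjusted p = 0.893). The T cell genes summed to 32.7 to 39.6 CPM in IL-33 plus dopamine hashtags and 41.6 to 43.4 CPM in IL-33 hashtags. Those of NK cells and ILC1s summed to 168.9 to 190.9 CPM in IL-33 plus dopamine hashtags and 159.9 to 172 CPM in IL-33 hashtags, and those of ILC3s to 13.1 to 18.9 CPM in IL-33 plus dopamine hashtags and 12.4 to 27.4 CPM in IL-33 hashtags.

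**Figure D2:**
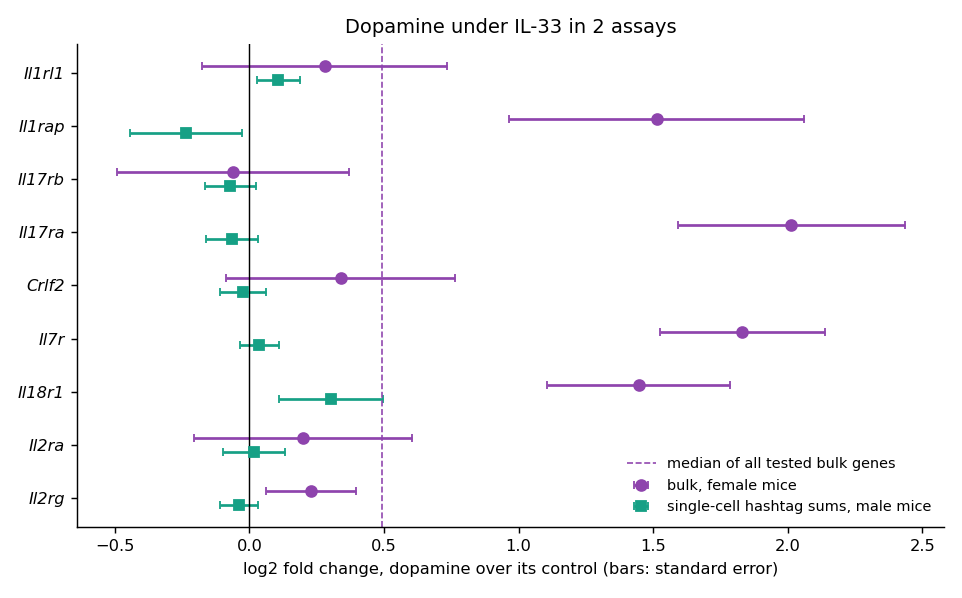
Log2 fold change of each receptor gene, dopamine over its control, with its standard error (bars), in the bulk libraries (circles; limma) and in the single-cell hashtag sums (squares; edgeR). The bulk values of Il17ra, Il7r, Il1rap and Il18r1 lie between 1.45 and 2.01, right of the median of all tested bulk genes (dashed, 0.49), and the single-cell values lie between -0.23 and 0.30.

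IL-33 was compared with PBS in the same pool, with 3 against 2 hashtags. Again no receptor passed, and no gene did (0 of 10820, or 0%, by edgeR, and 47 by DESeq2), although 1260 genes had an unadjusted p under 0.05. Il2ra had 278, 311 and 316 CPM in IL-33 hashtags, against 411 and 326 CPM in PBS hashtags. Every IL-33 hashtag was below both PBS hashtags, as were 13.5% of all tested genes. The log2 fold change was -0.32 ± 0.13 (SE; edgeR adjusted p = 0.383), and it was -0.14 without PBS hashtag 1. Il1rl1, the receptor of IL-33 itself, had 749, 725 and 693 CPM in IL-33 hashtags, against 825 and 774 CPM in PBS hashtags, also without overlap (log2 fold change -0.18 ± 0.089, SE; edgeR adjusted p = 0.458). The third receptor without overlap was Il2rg, with 446, 429.99 and 434 CPM in IL-33 hashtags, against 458 and 456 CPM in PBS hashtags (log2 fold change -0.10 ± 0.080, SE; edgeR adjusted p = 0.657). The remaining 6 overlapped, with log2 fold changes of -0.26 for Il1rap, -0.18 for Il17rb, 0.17 for Il17ra, 0.018 for Crlf2, -0.20 for Il18r1 and -0.094 for Il7r.

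IL-33 plus dopamine against PBS uses the same PBS hashtags, so it is no separate evidence. Il17rb averaged 86.7 ± 7.60 CPM in IL-33 plus dopamine hashtags (SD, n = 3) and 100.4 ± 5.39 CPM in PBS hashtags (SD, n = 2), and Il2rg 424 ± 17.3 CPM in IL-33 plus dopamine hashtags and 457 ± 1.23 CPM in PBS hashtags. Both lay lower without overlap, as did 9.03% of all tested genes, and neither passed (log2 fold changes -0.25 and -0.14; edgeR adjusted p = 0.827 and 0.852). For Il2ra the log2 fold change was -0.30 ± 0.13 (SE; edgeR adjusted p = 0.826). By edgeR 0 genes passed here (0%), 1 by DESeq2, and 640 had an unadjusted p under 0.05.

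**Figure D3:**
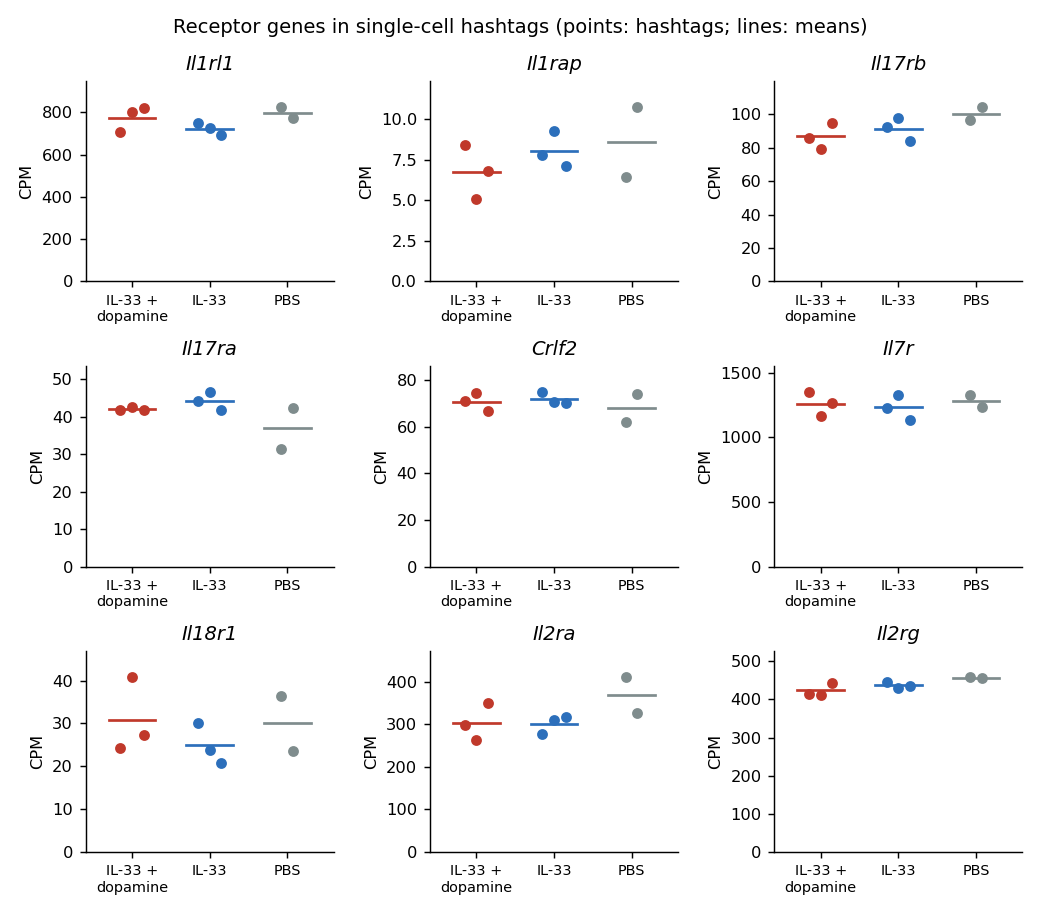
CPM of each receptor gene per hashtag (axes start at 0), IL-33 plus dopamine (3 hashtags), IL-33 (3) and PBS without IL-33 (2), with lines at the group means. All 9 overlap between IL-33 plus dopamine and IL-33, and Il1rl1, Il2ra and Il2rg are lower in the 3 IL-33 hashtags than in the 2 PBS hashtags.

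The authors' cell table divides the 9076 cells into clusters 0 to 5, which were built from these cells' own RNA, so receptor levels across clusters are a description without a test. Il1rl1 and Il2ra were both highest in cluster 3 in 8 of 8 hashtags and lowest in cluster 1 on average. Il1rl1 averaged 1068 ± 95.3 CPM in cluster 3 and 627 ± 38.9 CPM in cluster 1 (SD, n = 8 hashtags), a ratio of 1.70. Il2ra averaged 585 ± 42.8 CPM in cluster 3 and 234 ± 78.8 CPM in cluster 1, a ratio of 2.499. The order of Il1rl1 below cluster 3 was cluster 2 (768 CPM), 5 (766), 4 (762), 0 (661) and 1, and that of Il2ra was 2 (343 CPM), 4 (285), 5 (266), 0 (241) and 1. Neighbours in these orders overlapped in range over hashtags except at 1 step each, which was the step below cluster 3.

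Other receptors had other orders. Il7r was highest in cluster 4 (1462 ± 163 CPM) and lowest in cluster 5 (1093 ± 105 CPM, n = 7 hashtags with at least 20 cells), a ratio of 1.34. Cluster 4 was the top cluster of Il7r in only 5 hashtags. Il18r1 was highest in cluster 5 (43.0 ± 29.4 CPM, n = 7) and lowest in cluster 0 (18.03 ± 4.63 CPM, n = 8), but cluster 5 was its top cluster in only 4 hashtags. Il2rg ranged least, with 495 CPM in cluster 3 and 400.3 CPM in cluster 0, a ratio of 1.24, and cluster 3 was its top cluster in only 5 hashtags. Ratios for Il17rb (1.28), Crlf2 (1.303), Il17ra (1.52) and Il1rap (2.04) rest on ranges that overlap at every step of their order. The median cell held 8142 UMIs in cluster 5 and 4082 to 5481 UMIs in the others.

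Across the 47 sums of a hashtag and a cluster with at least 20 cells, Pearson's r of log2(CPM + 1) was 0.81 between Il1rl1 and Il2ra, 0.71 between Il1rl1 and Il2rg, and 0.61 between Il2ra and Il2rg. The sums share hashtags, a pool and the clustering, so these values are a description. Among 2492 genes with a mean of at least 50 CPM, the patterns most like Il1rl1 were those of Nabp1 (r = 0.88), Gata3 (0.87), the transcription factor that specifies ILC2s, and Gtf2b (0.87), a general transcription factor. For Il2ra they were Cwc25 (0.91), a splicing factor, Ddx3y (0.91), a Y-linked RNA helicase, and Gpr65 (0.88), a proton-sensing receptor. For Il7r they were Cnot6l (0.76), Ptges3 (0.76) and Nipbl (0.75), a cohesin loader.

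**Figure D4:**
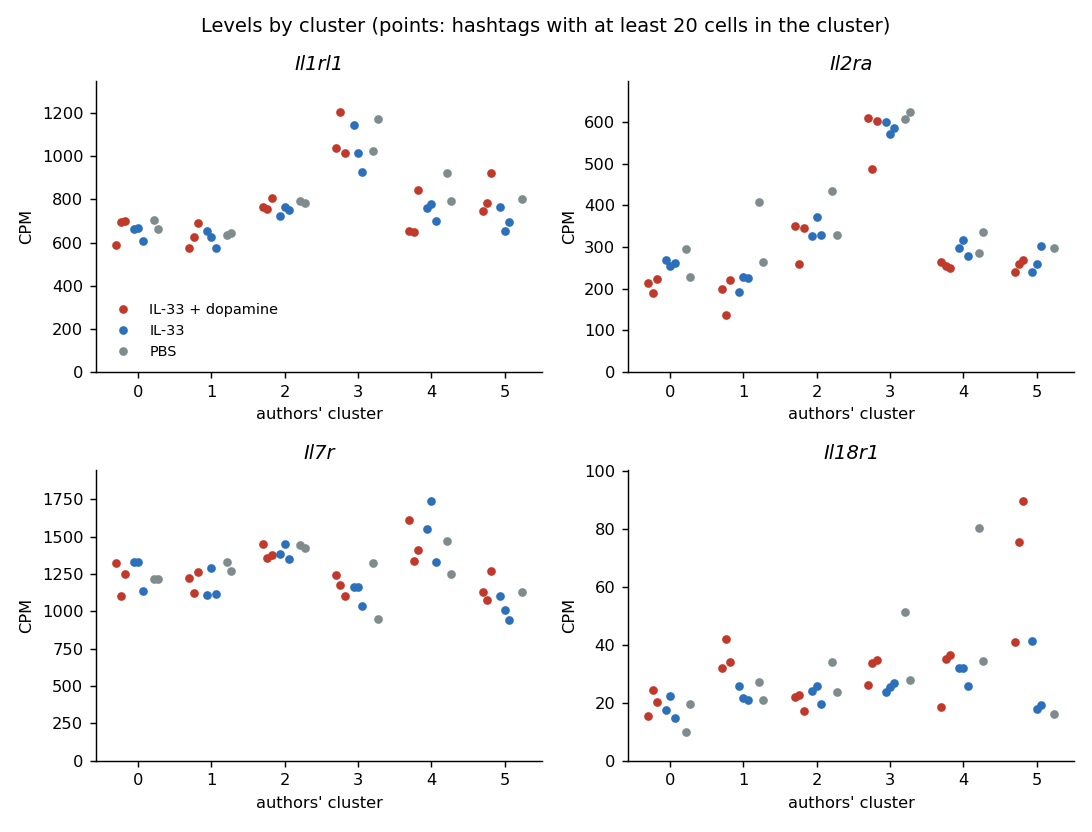
CPM of Il1rl1, Il2ra, Il7r and Il18r1 in each of the authors' clusters (x axis), 1 point per hashtag with at least 20 cells, coloured by treatment. Cluster 3 holds the highest Il1rl1 and Il2ra values in 8 of 8 hashtags, and the IL-33 plus dopamine hashtags spread widely for Il18r1 in cluster 5.

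Because the pooled cells of the treatments fell differently into clusters, dopamine was also compared within clusters. Pooled over hashtags, cluster 3, the one richest in Il2ra, held 16.4% of IL-33 plus dopamine cells and 9.92% of IL-33 cells. Cluster 1, the poorest, held 16.004% of IL-33 plus dopamine cells and 27.0% of IL-33 cells. By hashtag, cluster 3 held 143 of 1252, 204 of 1197 and 296 of 1475 IL-33 plus dopamine cells. In IL-33 hashtags it held 115 of 1485, 110 of 1092 and 181 of 1516 cells, and these shares overlapped. Cluster 1 held 197, 259 and 172 cells of the IL-33 plus dopamine hashtags and 389, 304 and 413 of the IL-33 hashtags, and its shares did not overlap. The shares were not tested. Within clusters Il2ra was lower on average in IL-33 plus dopamine hashtags in 6 of 6 clusters, as was Il2rg, and 3.89% of all tested genes were lower in all 6. The differences in mean log2(CPM + 1) were -0.33 to -0.055 for Il2ra but only -0.073 to -0.0023 for Il2rg. In cluster 0, Il2ra had 213, 189 and 224 CPM in IL-33 plus dopamine hashtags, against 269, 254 and 260.4 CPM in IL-33 hashtags. The groups did not overlap there (4.42% of genes with at least 10 UMIs were lower without overlap), and the log2 fold change was -0.35 ± 0.10 (SE; edgeR adjusted p = 0.437), where 0.0248% of genes passed. In cluster 4, Il2ra had 264, 255 and 249 CPM in IL-33 plus dopamine hashtags, against 297, 316 and 279 CPM in IL-33 hashtags, again without overlap, as were 5.49% of genes (log2 fold change -0.24 ± 0.11, SE; edgeR adjusted p = 0.783, where 0.0547% of genes passed).

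Averaged over the 6 clusters with equal weight, log2(CPM + 1) of Il2ra was 8.18, 7.94 and 8.22 in IL-33 plus dopamine hashtags, against 8.23, 8.31 and 8.30 in IL-33 hashtags. This comparison was chosen after the data were seen. The groups did not overlap, with a difference of -0.17 (two-sided exact permutation p = 0.1, the smallest that 3 against 3 allow), and 5.62% of all tested genes were lower without overlap by this measure. It stayed between -0.22 and -0.081 with any 1 of the 6 hashtags left out. In an edgeR fit over the 47 sums with cluster as a term, Il2ra passed as lower (log2 fold change -0.18 ± 0.052, SE; adjusted p = 0.0328), as did 3.58% of tested genes in either direction. By the same fit it passed as lower in IL-33 plus dopamine against PBS (log2 fold change -0.32 ± 0.069, SE; adjusted p = 0.0041), as did 1.74% of tested genes. That fit treats sums of the same hashtag as independent, so its p-values are too small. Over all cells, without regard to cluster, the log2 fold change of Il2ra was 0.015.

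Il18r1 was compared within clusters in the same way. In cluster 5 it had 41.2, 75.7 and 89.8 CPM in IL-33 plus dopamine hashtags, from 84, 170 and 26 cells, against 41.3, 18.04 and 19.1 CPM in IL-33 hashtags, from 327, 97 and 178 cells. IL-33 plus dopamine hashtag 6 lay within the range of the IL-33 hashtags, and the highest value rested on 12 UMIs. The log2 fold change was 1.09 ± 0.26 (SE; edgeR adjusted p = 0.0575, where 0.364% of genes passed). In cluster 1, Il18r1 had 32.0, 42.0 and 34.0 CPM in IL-33 plus dopamine hashtags, against 25.8, 21.6 and 21.1 CPM in IL-33 hashtags. These did not overlap (5.78% of genes were higher without overlap), with a log2 fold change of 0.65 ± 0.20 (SE; edgeR adjusted p = 0.533, where 0.0834% of genes passed). Of the 54 pairs of a receptor and a cluster, 2 were higher and 5 lower without overlap, and none passed. Besides Il2ra and Il18r1, these pairs were Crlf2, higher in cluster 1 and lower in cluster 5 (6.26% of genes were lower there), Il2rg, lower in cluster 1 (5.01% of genes), and Il1rap, lower in cluster 4.

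**Figure D5:**
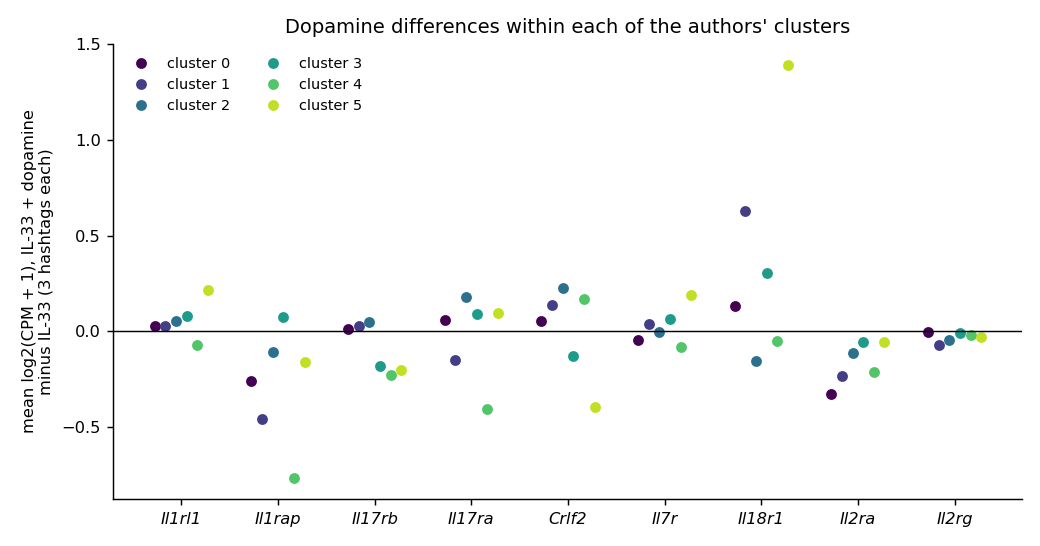
Difference in mean log2(CPM + 1), IL-33 plus dopamine minus IL-33 (3 hashtags each), for each receptor gene within each of the authors' clusters (coloured points; black line at 0). Il2ra (-0.33 to -0.055) and Il2rg (-0.073 to -0.0023) lie below 0 in 6 of 6 clusters, and the highest point is Il18r1 in cluster 5, at 1.39.

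The share of cells with at least 1 UMI depends on depth, so each cell was thinned to 2000 UMIs, which left out 1 IL-33 plus dopamine cell, 2 IL-33 cells and 1 PBS cell. A UMI of Il7r was found in 88.1% ± 1.64 of IL-33 plus dopamine cells, 88.9% ± 1.43 of IL-33 cells and 89.6% ± 1.45 of PBS cells (SD over 3, 3 and 2 hashtags). Il1rl1 was found in 73.3% ± 3.10 of IL-33 plus dopamine cells, 70.9% ± 2.97 of IL-33 cells and 73.8% ± 0.185 of PBS cells. For Il2ra the share was 39.6% ± 4.05 with IL-33 plus dopamine, 40.3% ± 2.27 with IL-33 and 46.6% ± 6.84 with PBS, and for Il2rg 55.5% ± 1.32 with IL-33 plus dopamine, 56.2% ± 0.148 with IL-33 and 57.9% ± 0.478 with PBS. The other receptors were rarer at this depth. In IL-33 plus dopamine cells the shares were 15.6% for Il17rb, 13.2% for Crlf2, 7.67% for Il17ra, 5.12% for Il18r1 and 1.07% for Il1rap. In IL-33 cells they were 15.3% for Il17rb, 12.96% for Crlf2, 8.01% for Il17ra, 4.28% for Il18r1 and 1.57% for Il1rap, and in PBS cells 19.1%, 12.9%, 6.63%, 5.30% and 2.06%. Lyz2, a myeloid gene that ILC2s should lack, had a UMI in 0.118% of IL-33 plus dopamine cells, 0.0750% of IL-33 cells and 0% of PBS cells, below the share of every receptor in the same group.

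Without thinning, 3 receptors had a UMI in fewer IL-33 plus dopamine cells than IL-33 cells in every hashtag: Il17rb (30.4% with dopamine and 35.0% with IL-33 alone), Il2ra (65.5% with dopamine and 69.98% with IL-33 alone) and Il2rg (82.0% with dopamine and 86.3% with IL-33 alone). Each had an exact permutation p = 0.1, the smallest possible, and 10.7% of all tested genes were lower without overlap by this measure. The median cell held 4668 UMIs with IL-33 plus dopamine and 5132 with IL-33. After thinning, the differences were 0.237 percentage points for Il17rb, -0.753 for Il2ra and -0.710 for Il2rg (exact permutation p = 1, 0.9 and 0.7). The median cell held a UMI of 3 of the 9 receptors in all 8 hashtags after thinning. Between 0.0916% and 1.17% of cells per hashtag had none of the 9 at that depth.

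Detection of Il1rl1 RNA was also set beside that of each other receptor. Over the 8 hashtags, thinned cells with a UMI of Il2ra had Il1rl1 in 74.0% ± 2.69 of cases and cells without it in 71.5% ± 3.06 (SD), and the share was higher with Il2ra in 6 of 8 hashtags. For Il17ra these shares were 76.5% ± 7.51 with it and 72.3% ± 2.73 without (higher in 6 of 8), for Il1rap 75.7% ± 15.2 and 72.5% ± 2.71 (7 of 8) and for Il7r 72.8% ± 2.61 and 69.7% ± 6.66 (6 of 8). The share was higher with Il18r1 in only 2 of 8 hashtags, at 68.9% ± 7.33 with it and 72.7% ± 2.80 without. For Il17rb, Crlf2 and Il2rg it was higher in 5, 4 and 3 of 8. Cells of a hashtag share their source, so no test was made over cells.

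The other genes of these pathways were counted by list, and none passed in the bulk or in any of the 3 single-cell comparisons. Of the other receptors of the common gamma chain family, 3 of 5 were higher in dopamine libraries without overlap, against 23.5% of all tested genes, and the median log2 fold change was 0.89 above that of all tested genes. Among them, Il2rb, the beta chain of the IL-2 receptor, had 425, 537 and 409 TPM in dopamine libraries, against 267, 88.9 and 216 TPM in PBS libraries. Il4ra, the IL-4 and IL-13 receptor chain, had 137, 172 and 189.7 TPM in dopamine libraries, against 89.2, 40.0 and 65.6 TPM in PBS libraries. With IL-33 plus dopamine against IL-33 in single cells, 0 of these 5 were higher and 0 lower without overlap, against 7.81% and 6.87% of all tested genes. In single cells Il2rb averaged 148 ± 22.7 CPM with IL-33 plus dopamine and 129 ± 8.04 CPM with IL-33 (SD, n = 3 each), and Il4ra averaged 107 ± 32.97 CPM with IL-33 plus dopamine and 87.0 ± 7.75 CPM with IL-33.

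Of other type I and II cytokine receptors, 8 of 16 tested were higher in dopamine libraries without overlap, against 23.5% of all tested genes (median 0.82 above that of all genes). Among them was Ifngr1, the interferon gamma receptor, with 652, 797 and 677 TPM in dopamine libraries, against 246, 123 and 339.7 TPM in PBS libraries. In single cells, 4 of 13 tested were higher and 0 lower without overlap with IL-33 plus dopamine against IL-33, against 7.81% and 6.87% of all tested genes. Ifngr1 averaged 313 ± 68.2 CPM with IL-33 plus dopamine and 299 ± 55.6 CPM with IL-33 (SD, n = 3 each). Of 4 other IL-1 family receptors tested, 1 was higher and 1 lower without overlap, against 23.5% and 6.57% of all tested genes. The lower one was Il1r2, a decoy receptor for IL-1, with 182, 60.7 and 42.8 TPM in dopamine libraries, against 288, 294 and 299 TPM in PBS libraries. Its single-cell level was 7.52 ± 6.17 CPM with IL-33 plus dopamine, 11.2 ± 12.2 CPM with IL-33 and 0.358 ± 0.506 CPM with PBS (SD, n = 3, 3 and 2). Of the other IL-17 family receptors 0 of 2 did not overlap in bulk, and the 1 tested in single cells was lower without overlap with IL-33 plus dopamine than with IL-33. Of the 4 other IL-1 family receptors in single cells, 0 were higher and 0 lower without overlap.

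Downstream of the receptors, 6 of 14 genes of MyD88 and IRAK signalling, 2 of 5 adaptors of IL-17 receptors, 2 of 11 JAK kinases and STAT factors and 3 of 8 SOCS feedback inhibitors were higher in dopamine libraries without overlap, and none was lower, against 23.5% and 6.57% of all tested genes. Their median changes were 0.43, 0.33, 0.54 and 0.073 above that of all genes. In single cells, with IL-33 plus dopamine against IL-33, 2 of 14, 0 of 4, 3 of 11 and 1 of 8 of these lists were higher without overlap. For JAK kinases and STAT factors 1 was lower, and for the other lists 0 were. The shares of all tested genes were 7.81% higher and 6.87% lower. Irak2, a kinase adaptor of MyD88 signalling, had 91.4, 195 and 123 TPM in dopamine libraries, against 26.8, 23.2 and 57.9 TPM in PBS libraries. Socs3, a feedback inhibitor of STAT3 signalling, had 113, 205 and 168 TPM in dopamine libraries, against 74.5, 9.60 and 31.6 TPM in PBS libraries. Of the ligands, 3 of 5 tested were higher without overlap in bulk, with Il17a at 60.0, 88.2 and 52.9 TPM in dopamine libraries, against 11.1, 5.73 and 40.9 TPM in PBS libraries. In single cells 1 of 5 ligands was higher and 0 lower without overlap. Il17a is also on the ILC3 marker list, and in single cells it averaged 5.01 ± 1.67 CPM with IL-33 plus dopamine, 7.28 ± 7.81 CPM with IL-33 and 16.6 ± 21.0 CPM with PBS (SD, n = 3, 3 and 2). Il4, the type 2 cytokine of this list, had 60.2, 48.8 and 63.4 TPM in dopamine libraries, against 57.1, 13.5 and 45.6 TPM in PBS libraries, which overlapped, and 44.8 ± 1.10 CPM in single cells with IL-33 plus dopamine, against 46.7 ± 10.3 CPM with IL-33. In single cells Irak2 averaged 34.3 ± 7.63 CPM with IL-33 plus dopamine and 33.2 ± 3.12 CPM with IL-33, and Socs3 averaged 13.01 ± 1.44 CPM with IL-33 plus dopamine and 11.5 ± 1.24 CPM with IL-33 (SD, n = 3 each).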

How the data were processed

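All 9 receptors, the gene and marker lists and the naming rule were chosen with earlier results of these data known. TPM values per gene and bulk library were computed by the authors and deposited for 55413 genes; cutadapt 2.10, STAR 2.7.5c and RSEM 1.3.3 are named with the mouse build mm10, per the submitters' processing notes, without settings. UMI counts per gene and cell, with the hashtag, treatment and cluster number of each cell, were deposited by the authors for 9076 cells; Cell Ranger 6.1.1 and Seurat 4.0.2 are named, per the submitters' processing notes. The authors' cell filters and doublet calls are not given in the sources used here; doublets were not called again. The percent of UMIs from mitochondrial genes per cell was deposited by the authors.

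For bulk libraries, limma 3.58.1 was fitted to log2(TPM + 1), with the prior variance following expression, for genes that reached a TPM of 1 in 3 or more libraries. Sums of UMI counts per hashtag entered edgeR 4.0.16 (quasi-likelihood test, TMM, filterByExpr, all 8 hashtags in 1 fit), in R 4.3.3, also within clusters for sums of at least 20 cells; DESeq2 1.42.0 was an alternative. Adjusted p-values follow Benjamini-Hochberg over all tested genes. Single values were compared with two-sided exact permutation tests. Both fits were tested on simulated data. Cells were thinned by drawing UMIs without replacement. The text names all 9 receptors, passing members of each list (there were none), up to 2 members per list by level, and the 3 genes most like Il1rl1, Il7r and Il2ra. Il13, Id2, Rora, Cxcr6, Arg1, Cd3e, Cd3d, Lck and Cd4 were named after their values were seen. Equal numbers of bulk libraries mark no shared mouse in the labels, and their residuals correlated at 0.0186, -0.071 and -0.00177, so no pairing was used. Sequences are from RefSeq windows (8 of 9 receptors matched) and positions from GENCODE M21, both on GRCm38.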

Additional observations from a re-analysis of the deposited data

Results flagged for a closer look

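Crlf2, the TSLP-binding chain, moved in opposite directions with dopamine in 2 of the authors' clusters, which is why it is listed here. In cluster 1 all IL-33 plus dopamine hashtags (86.9, 80.5 and 84.3 CPM) lay above all IL-33 hashtags (72.8, 75.7 and 79.97 CPM), and in cluster 5 all IL-33 plus dopamine hashtags (54.9, 77.2 and 67.4 CPM, from 40, 108 and 9 UMIs) lay below all IL-33 hashtags (81.2, 94.99 and 85.6 CPM). The differences in mean log2(CPM + 1) were 0.138 and -0.397. The difference between the clusters was not tested, and neither cluster passed (edgeR adjusted p = 0.986 and 0.560). In those clusters, 5.78% and 6.26% of genes with at least 10 UMIs lay apart in the same way as Crlf2.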

How the results depend on the processing

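In the bulk libraries 4 genes passed, and 3 with a pseudocount of 0.1, 2 with a pseudocount of 5, 0 without a filter (2712 at an unadjusted p under 0.05), 2 above a mean TPM filter of 5, 5 with median-of-ratios scaling, 21 with quantile normalization and 2800 with array weights; leaving out 1 library gave 0 (without PBS library 2) to 1536 (without PBS library 1). Receptors passing numbered 0, against 1 with quantile normalization, 4 with array weights and 0 to 3 with 1 library left out. With a replicate block, 15 genes and no receptor passed; same-numbered libraries share only a number. Median-of-ratios scaling turned the bulk log2 fold changes of Il1rl1 (-0.26), Crlf2 (-0.18), Il2ra (-0.34) and Il2rg (-0.32), quantile normalization those of Crlf2 (-0.19) and Il2ra (-0.14), and array weights that of Il17rb (0.41).

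With 1 library left out, the bulk log2 fold changes that turned ranged from -0.059 to 0.84 for Il1rl1, -0.34 to 0.46 for Il17rb and -0.16 to 0.65 for Il2ra. In single cells, dopamine under IL-33 gave 3 genes, against 18 with DESeq2, 11 without a filter, 7 in cells between the 10th and 90th percentile of UMIs, 5 in thinned cells, 275 with cluster as a covariate and 0 to 15 with 1 hashtag left out. IL-33 over PBS gave 0 genes, against 47 with DESeq2, 14 without a filter, 74 with 2 groups only, 198 with cluster as a covariate and 0 to 48 with 1 hashtag left out. IL-33 plus dopamine over PBS gave 0, against 1 with DESeq2, 1 in thinned cells, 134 with cluster as a covariate and 0 to 4 with 1 hashtag left out. Receptors passing numbered 0 throughout, apart from 1 (Il2ra, lower) with cluster as a covariate in the dopamine and in the IL-33 plus dopamine over PBS comparisons. Leaving out 1 of the 2 PBS hashtags assumes that the other varies like the remaining groups.

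Signs of small single-cell log2 fold changes turned with the cells used. Under dopamine, cells between the 10th and 90th percentile gave 0.038 for Crlf2, -0.0024 for Il7r and -0.012 for Il2ra, thinned cells 0.011 for Il17rb, 0.054 for Crlf2, -0.0038 for Il7r and -0.029 for Il2ra, and the cluster covariate -0.0016 for Il7r and -0.18 for Il2ra. For IL-33 over PBS, Crlf2 was -0.0015, -0.057 and -0.024 under these 3 settings. For IL-33 plus dopamine over PBS, Crlf2 was 0.026 with totals only, 0.0094 without a filter and 0.036 in cells between those percentiles, and Il18r1 was -0.068 in cells between those percentiles and -0.074 in thinned cells. With 1 hashtag left out, ranges that crossed 0 were, under dopamine, -0.062 to 0.0072 for Crlf2, -0.018 to 0.095 for Il7r and -0.13 to 0.11 for Il2ra. For IL-33 over PBS they were -0.46 to 0.27 for Il1rap, -0.071 to 0.17 for Crlf2 and -0.58 to 0.058 for Il18r1. For IL-33 plus dopamine over PBS they were -0.14 to 0.0084 for Il1rl1, -0.70 to 0.029 for Il1rap, -0.036 to 0.38 for Il17ra, -0.097 to 0.15 for Crlf2, -0.28 to 0.36 for Il18r1 and -0.11 to 0.0023 for Il7r. Shares of cells turned for Il17rb (-4.67 percentage points unthinned, -1.14 at 1000 UMIs and -0.444 at 3000), Crlf2 (-2.07 unthinned), Il2ra (0.475 at 1000 UMIs) and Il1rap (0.255 at 3000 UMIs). The cause was not tested.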
